A study of Mus musculus with 6 samples.

Results

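The imprinted genes described here were 42 mouse genes given by name, from the well-studied imprinted regions, and 37 of them had a value among the 11736 genes of the deposited tables. The symbols were matched exactly to the gene column. Rtl1, Phlda2, Slc22a18, Ddc and Snhg14 were not analysed here. All 37 genes averaged at least 1 RPKM (reads per kilobase of gene, scaled to the number of reads in the library) in both groups, so none was kept only through the group where it was higher.

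The values came from total RNA of gonadal somatic cells of XY (male) C57BL/6 embryos at E11.5, a stage at which the gonad can still become a testis or an ovary. The 3 Cdyl-KO libraries carried the genotype Cdyl-KO, Nr5a1-hCD271, and the 3 Cdyl-Het libraries the genotype Cdyl-Het, Nr5a1-hCD271. Both groups thus carried Nr5a1-hCD271, which gave the surface marker by which the cells were taken with magnetic beads (MACS), and the comparison was with heterozygous cells, not with wild type. The form of the Cdyl mutation, and whether libraries came from separate embryos, pools or litters, are not given in the labels, so p-values measure only the spread between these libraries, which may be technical. The comparison asked which genes differ in these cells when Cdyl deficiency is homozygous. CDYL is a chromodomain protein that takes part in transcriptional repression with histone H3 methyltransferases.

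Imprinted genes are transcribed mainly from the copy inherited from 1 parent. Their regions hold a stretch of DNA, the imprinting control region, that is methylated in the egg or the sperm. The mark is kept after fertilization by the zinc finger protein ZFP57, which binds the methylated motif TGCCGC, with its partner TRIM28, the H3K9 methyltransferase SETDB1 and the maintenance methyltransferase DNMT1. Neighbouring genes are often expressed from opposite parental copies, and a long noncoding RNA from one copy commonly keeps protein-coding neighbours silent there. Many imprinted genes are strongly transcribed in embryonic mesoderm and set the growth of the embryo. The RPKM values sum both parental copies, so parental origin was not measured here, and the parental copy named below for each gene is background knowledge.

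Cdyl (chr13:35659833-35874063, plus strand) had 6.77, 6.93 and 7.07 scaled RPKM in Cdyl-KO libraries 1 to 3, against 7.77, 8.06 and 8.22 in Cdyl-Het libraries 1 to 3, where scaled RPKM is the deposited value divided by a scaling factor of its library. It was lower in every Cdyl-KO library, with a log2 change of -0.19 that did not pass the threshold of 0.05 (limma adjusted p = 0.0702). The labels do not say which stretch of Cdyl was altered, and a value over the whole gene may not read it. Of the markers of gonadal somatic cells (Nr5a1, Wt1, Gata4 and others) 8 of 8 were listed, with summed levels of 366 to 406 scaled RPKM in Cdyl-KO and 331 to 380 in Cdyl-Het. Of these, Emx2, Nr0b1 and Lhx9 passed as higher, with log2 changes of 0.57, 0.50 and 0.46 (limma adjusted p = 0.0129, 0.00907 and 0.0273). The other 5 did not pass, and 2 of them, Nr5a1 and Gata4, had log2 changes below 0 (-0.14 and -0.07). Of 10 endothelial markers 8 were listed, and their sum was 21.7 to 23.9 scaled RPKM in Cdyl-KO and 33.1 to 36.3 in Cdyl-Het, with Kdr, Cdh5, Tek and Egfl7 past the threshold as lower. Interstitial progenitor markers, 10 of 10 listed, summed to 139 to 146 scaled RPKM in Cdyl-KO and 132 to 136 in Cdyl-Het. Of these 10, 6 had log2 changes above 0 and 4 below 0, and only Maf passed, as higher (log2 change 0.32). Neural crest, nerve and muscle markers, 3 of 8 listed, summed to 7.42 to 10.2 in Cdyl-KO and 5.25 to 6.77 in Cdyl-Het. The difference in the sum of these 3 went with Tubb3, which passed as higher (log2 change 1.15), while Stmn2 and Hand2 did not pass (log2 changes 0.34 and -0.15). The 10 germ cell markers were unlisted but for Kit. Erythroid markers, 6 of 10 listed, summed to 55.1 to 162 in Cdyl-KO and 51.5 to 261 in Cdyl-Het. All 6 had log2 changes below 0, and 0 passed. Mesonephric epithelium markers, 6 of 8 listed, summed to 15.9 to 19.9 in Cdyl-KO and 13.6 to 19.5 in Cdyl-Het. Pax8 passed as higher (log2 change 0.40, limma adjusted p = 0.0227), and 4 of these 6 had log2 changes below 0. Of 6 macrophage markers only Cd68 was listed, and it did not pass. The part of these marker differences in the imprinted values below was not tested, and in bulk RNA fewer cells of a type and less RNA per cell cannot be told apart. Implied depth was 42.9 to 45.2 M reads in Cdyl-KO and 34.6 to 44.1 M reads in Cdyl-Het, and implied reads came out whole (tolerance 0.05) in at least 5 libraries for 26 of the 37 imprinted genes. These 26 rested on 206 (Magel2) to 183903 (Peg3) implied reads in a library, and the implied reads of the other 11 are not used here.

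Of the 37 imprinted genes, 7 rose in Cdyl-KO cells, 0 fell and 30 did not pass the threshold (limma on log2(scaled RPKM + 1), Benjamini-Hochberg adjusted p of 0.05 over all genes). The 7 were Nnat, Dlk1, H19, Igf2, Peg10, Zim1 and Asb4, with log2 changes of 0.30 to 0.51. Over all 11736 genes, 7.50% passed, 4.67% as higher and 2.83% as lower. At an unadjusted p of 0.05 in limma, 12 imprinted genes were higher and 3 lower, beside 14.2% higher and 11.2% lower over all genes. The libraries of the groups did not overlap for 19 imprinted genes, 16 of them higher and 3 lower in Cdyl-KO. Over all genes, 31.6% did not overlap, 17.0% as higher and 14.5% as lower. The median log2 change of the 37 was 0.07, with a range of -0.34 to 0.51, beside -0.001 over all genes.

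With 1 library left out, and so fewer samples in the fit, the log2 changes kept their direction and much of their size. They ran from 0.44 to 0.55 for Nnat, 0.27 to 0.31 for Dlk1, 0.33 to 0.42 for H19 and 0.30 to 0.39 for Igf2, and from 0.39 to 0.60 for Peg10, 0.35 to 0.49 for Zim1 and 0.43 to 0.61 for Asb4. The calls were more often lost than kept. Without Cdyl-KO replicate 1 or Cdyl-Het replicate 2, 0 of the 7 passed the threshold, without Cdyl-KO replicate 2 only Nnat, and without Cdyl-KO replicate 3 Nnat and Asb4. Without Cdyl-Het replicate 3 only Peg10 passed, and without Cdyl-Het replicate 1 every gene of the 7 except H19 passed. Cdyl-Het replicate 3 was the lowest Cdyl-Het library in 24 of the 37 genes and in 7 of the 7 that rose. On the deposited values without scaling between libraries, where the median log2 change of all genes was -0.12, the split over all genes was 305 higher (2.60%) and 1558 lower (13.3%), and of the 7 only Nnat passed.

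**Figure D1:**
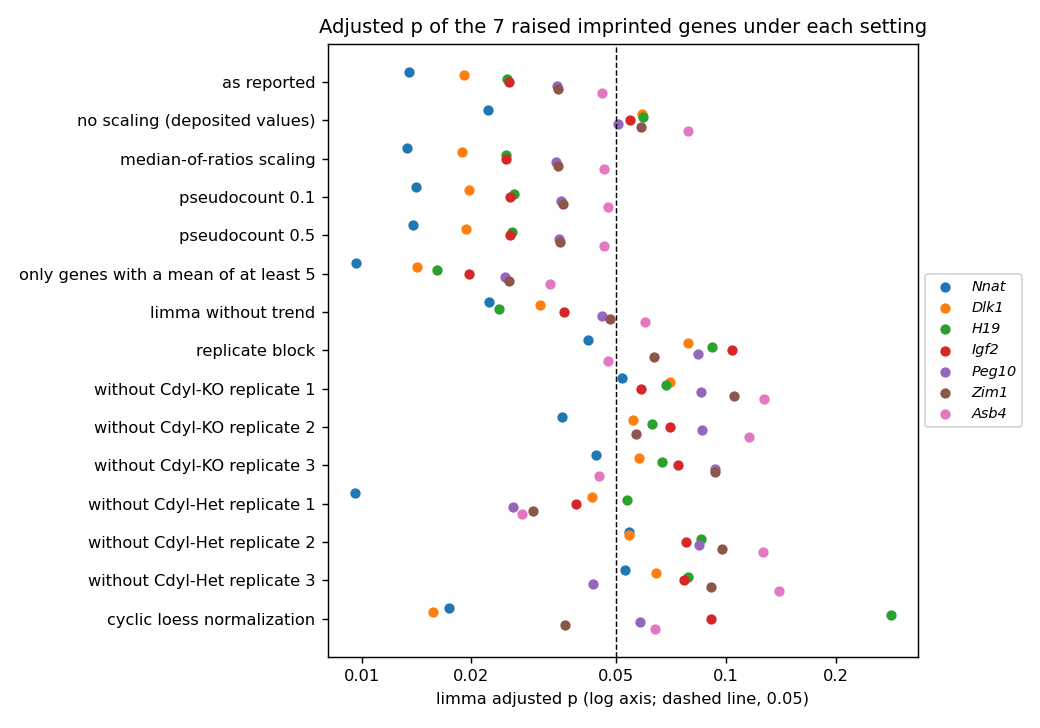
Limma adjusted p (log axis, dashed line at 0.05) of the 7 raised imprinted genes as reported and under each alternative. With 1 library left out most points move to the right of the line, and Nnat stays between 0.00958 and 0.0543.

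**Figure D2:**
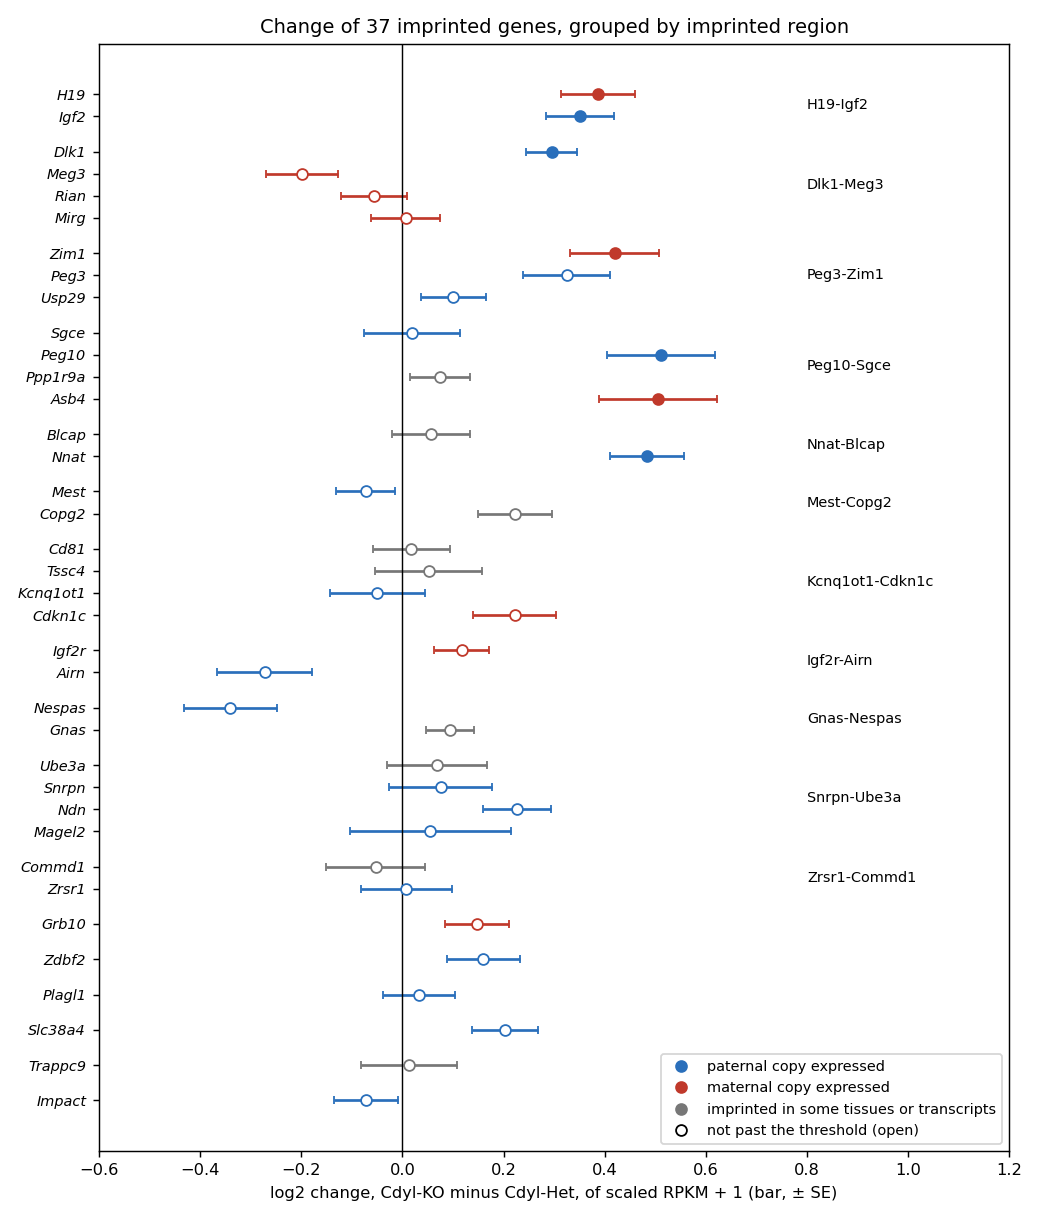
Log2 change (Cdyl-KO minus Cdyl-Het) of scaled RPKM + 1 for 37 imprinted genes, grouped by imprinted region, with the standard error as a bar and the colour giving the parental copy known to be expressed. Filled points passed the threshold, and the 7 that did all lie to the right of 0, between 0.30 and 0.51.

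Nnat, a paternally expressed gene for a small membrane proteolipid of the endoplasmic reticulum, lies at chr2:157560078-157562522 (mm10, plus strand), inside the Blcap gene. It had 36.5, 34.3 and 36.8 scaled RPKM in Cdyl-KO libraries 1 to 3, against 28.1, 24.4 and 23.7 scaled RPKM in Cdyl-Het libraries 1 to 3. The lowest Cdyl-KO library was above the highest Cdyl-Het library. The means were 35.9 ± 1.35 in Cdyl-KO and 25.4 ± 2.35 in Cdyl-Het (SD, n = 3 each), a log2 change of 0.48 (SE 0.07, limma adjusted p = 0.0135; 0.00958 to 0.0543 with 1 library left out). Blcap, which encodes an apoptosis-related membrane protein and whose imprinting is limited to brain, averaged 6.25 scaled RPKM in Cdyl-KO and 5.97 in Cdyl-Het, and did not pass (log2 change 0.06, limma adjusted p = 0.691).

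The promoter windows of 4 members of the regions with a raised gene are shown with their matches to TGCCGC, the motif bound by ZFP57. They run from 250 bases before to 50 bases after the start of the gene (RefSeq, GRCm38.p6, 5' to 3' on the gene's strand). Capitals mark TGCCGC, which reads GCGGCA on the other strand.
Nnat, chr2:157559828-157560127, plus strand: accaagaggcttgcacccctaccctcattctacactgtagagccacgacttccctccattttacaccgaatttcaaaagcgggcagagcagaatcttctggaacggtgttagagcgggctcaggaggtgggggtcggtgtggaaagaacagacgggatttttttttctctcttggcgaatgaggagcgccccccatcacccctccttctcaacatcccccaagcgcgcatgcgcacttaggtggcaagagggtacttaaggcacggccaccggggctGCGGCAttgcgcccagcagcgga
Zim1, chr7:6696383-6696682, minus strand: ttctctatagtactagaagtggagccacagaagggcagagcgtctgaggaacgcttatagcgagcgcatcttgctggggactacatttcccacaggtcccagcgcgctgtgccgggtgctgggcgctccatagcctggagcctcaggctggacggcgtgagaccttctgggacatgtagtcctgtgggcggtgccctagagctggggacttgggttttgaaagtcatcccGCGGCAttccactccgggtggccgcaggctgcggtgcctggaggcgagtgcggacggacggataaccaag
Peg3, chr7:6730370-6730669, minus strand: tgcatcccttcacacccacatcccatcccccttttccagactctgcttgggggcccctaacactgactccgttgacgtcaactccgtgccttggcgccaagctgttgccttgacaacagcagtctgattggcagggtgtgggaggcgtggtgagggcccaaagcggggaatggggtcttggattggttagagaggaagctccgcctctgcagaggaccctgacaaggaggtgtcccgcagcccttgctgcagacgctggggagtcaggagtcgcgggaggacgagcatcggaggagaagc
Dlk1, chr12:109452573-109452872, plus strand: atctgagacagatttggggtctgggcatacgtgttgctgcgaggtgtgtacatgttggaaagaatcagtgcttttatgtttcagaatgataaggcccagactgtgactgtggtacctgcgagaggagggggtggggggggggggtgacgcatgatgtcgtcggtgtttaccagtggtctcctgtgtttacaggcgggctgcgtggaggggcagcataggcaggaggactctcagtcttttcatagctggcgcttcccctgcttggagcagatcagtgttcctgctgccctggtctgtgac
The Nnat and Zim1 windows each held 1 match on the opposite strand, and those of Peg3 and Dlk1 held 0. The Peg3 window shares 263 bases with that of Usp29, which starts on the other strand. Of the 37 genes, 30 had at least 1 such window, and TGCCGC on either strand was in 12 of their 49 windows (24.5%), beside 19.8% of the 10993 windows of all listed genes. Of the raised genes, 5 had a window, and H19 and Peg10 had none to search. TGCCGC was in 3 of the 9 windows of these 5 genes, in windows of Nnat, Zim1 and Igf2. Counted by gene, that is 3 of 5, beside 2012 of the 8593 listed genes with a window. The YY1 motif CCATNTT, searched on both strands, was in 12.2% of the imprinted windows and 14.9% of all windows. The median number of CpG dinucleotides per window was 13 for the imprinted genes and 21 for all listed genes. A match is a string of letters in these windows and no measurement of binding or methylation, and imprinting control regions outside the windows were not searched.

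H19 and Igf2 share an imprinted region on chromosome 7. H19, a maternally expressed noncoding RNA known for restraining growth, lies at chr7:142575529-142578143 (minus strand) and was among the highest of all genes, at the 99.9th percentile of level. It had 959.18, 947.25 and 978.71 scaled RPKM in Cdyl-KO libraries 1 to 3, against 768.86, 756.18 and 682.88 scaled RPKM in Cdyl-Het libraries 1 to 3. All Cdyl-KO libraries were above all Cdyl-Het libraries. The means were 961.71 ± 15.9 in Cdyl-KO and 735.97 ± 46.4 in Cdyl-Het (SD, n = 3 each), a log2 change of 0.39 (SE 0.07, limma adjusted p = 0.0250; 0.0536 to 0.0854 with 1 library left out). With a normalization that follows level (cyclic loess, added after seeing the data), the log2 change of H19 was 0.14 and its limma adjusted p 0.284, within 0.0161 to 0.284 over all alternatives.

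Igf2, the paternally expressed growth factor of the region, lies at chr7:142650766-142666816 (minus strand). It had 132.04, 136.66 and 144.61 scaled RPKM in Cdyl-KO libraries 1 to 3, against 113.8, 109.05 and 100.67 scaled RPKM in Cdyl-Het libraries 1 to 3. There was no overlap. Igf2 rose by a log2 change of 0.35 (SE 0.07, limma adjusted p = 0.0253; 0.0388 to 0.0775 with 1 library left out), with means of 137.77 ± 6.36 in Cdyl-KO and 107.84 ± 6.65 in Cdyl-Het (SD, n = 3 each). Under cyclic loess the log2 change was 0.21 (limma adjusted p = 0.0909, within 0.0197 to 0.104 over all alternatives). The ratio of Igf2 to H19 within a library was 0.143 in Cdyl-KO and 0.147 in Cdyl-Het, and its log2 ratios overlapped (difference -0.03, two-sided exact permutation p = 0.5). Igf2 shares 3596 exon bases with Gm49394 on the same strand, a gene that was not listed, so reads of both cannot be told apart.

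The H19 exon holds the hairpin of a microRNA, Mir675, which is listed as a gene of its own. Its mature microRNAs are shown as the sequences made from an H19 transcript, with the seed (bases 2 to 8) in capitals (RefSeq, GRCm38.p6).
mmu-miR-675-3p, chr7:142577078-142577099, minus strand: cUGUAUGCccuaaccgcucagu
mmu-miR-675-5p, chr7:142577112-142577133, minus strand: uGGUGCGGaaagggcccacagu
The 2 seeds differ from each other. The Mir675 hairpin had 2535, 2583 and 3094 scaled RPKM in Cdyl-KO libraries 1 to 3, against 1775, 1561 and 1408 scaled RPKM in Cdyl-Het libraries 1 to 3. The groups did not overlap, and Mir675 rose by a log2 change of 0.79 (limma adjusted p = 0.0140). Its 84 bases lie in an H19 exon on the same strand, so H19 reads and hairpin reads cannot be told apart, and the value is no measure of mature miR-675. Of 21 microRNA genes (GENCODE M21) listed inside the imprinted genes on their strand, 1 rose (Mir675) and 0 fell. Over all genes 4.67% rose and 2.83% fell, so 1 of 21 is close to the share over all genes. The median log2 change of the 21 was 0.01. Mir335 in Mest had a log2 change of 0.01 and that of Mir483 in Igf2 was 0.26, with 1.31, 4.61 and 0 scaled RPKM in Cdyl-KO libraries 1 to 3, against 0, 0.672 and 3.51 in Cdyl-Het libraries 1 to 3 (limma adjusted p = 0.856).

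**Figure D3:**
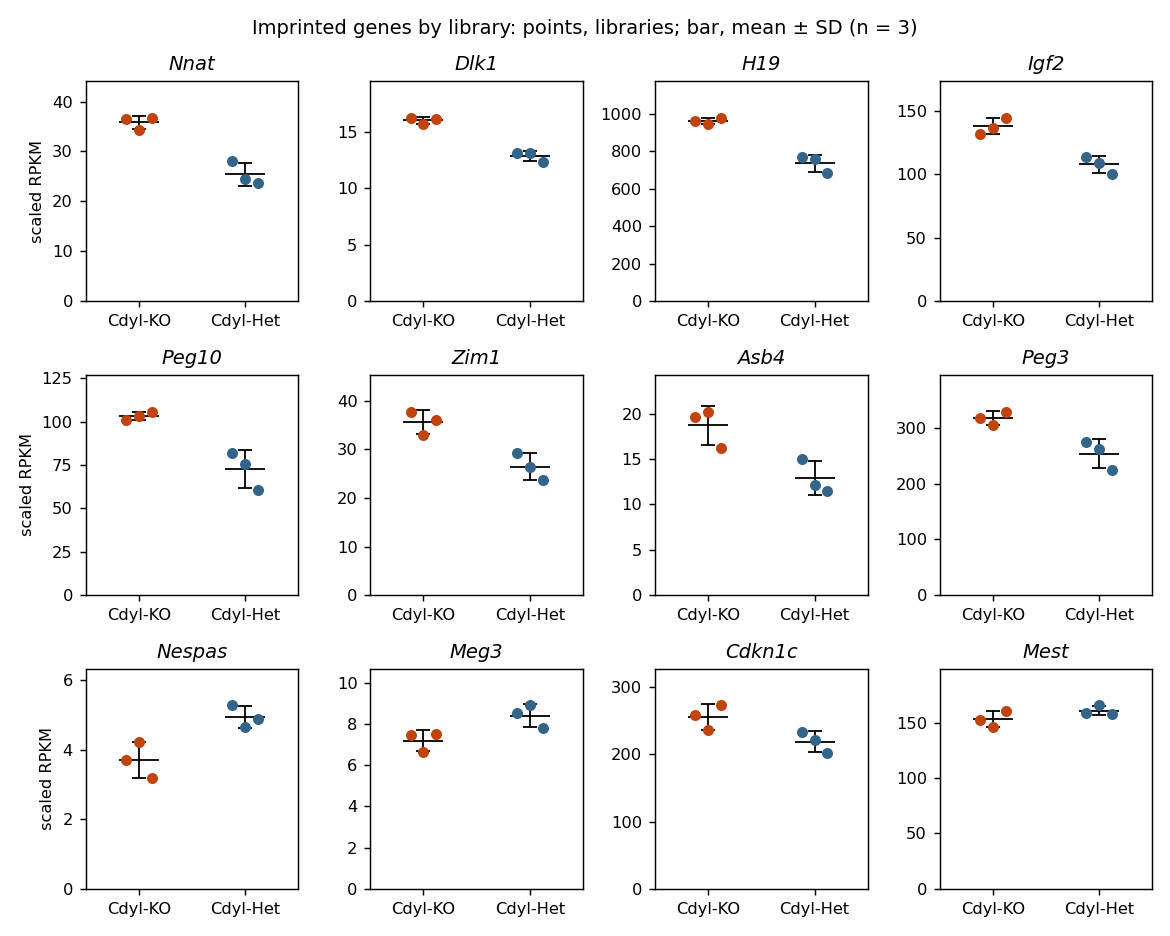
Scaled RPKM of 12 imprinted genes in each library (points; mean ± SD as bars, n = 3), with Cdyl-KO on the left and Cdyl-Het on the right of each panel and every axis starting at 0. The Cdyl-KO points lie above the Cdyl-Het points in the 7 raised genes, Peg3 and Cdkn1c, below them in Nespas and Meg3, and among them in Mest.

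The Dlk1-Meg3 region of chromosome 12 holds protein-coding genes of the paternal copy and noncoding RNAs of the maternal copy. Dlk1, a paternally expressed transmembrane protein related to Notch ligands, lies at chr12:109452823-109463336 (plus strand). It had 16.2, 15.7 and 16.1 scaled RPKM in Cdyl-KO libraries 1 to 3, against 13.1, 13.1 and 12.3 scaled RPKM in Cdyl-Het libraries 1 to 3. The groups did not overlap. Dlk1 rose by a log2 change of 0.30 (SE 0.05, limma adjusted p = 0.0191; 0.0428 to 0.0704 with 1 library left out). Under cyclic loess Dlk1 passed (log2 change 0.25, limma adjusted p = 0.0157, within 0.0142 to 0.0788 over all alternatives).

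Meg3, the maternally expressed long noncoding RNA of that region, had 7.48, 6.61 and 7.48 scaled RPKM in Cdyl-KO libraries 1 to 3, against 8.53, 8.90 and 7.78 scaled RPKM in Cdyl-Het libraries 1 to 3. All Cdyl-KO libraries were below all Cdyl-Het libraries, and the log2 change of -0.20 did not pass (limma adjusted p = 0.138). Rian and Mirg, further noncoding RNAs of the maternal copy that host small RNAs, had log2 changes of -0.06 and 0.01. The log2 ratio of Dlk1 to Meg3 was 1.12, 1.25 and 1.11 in Cdyl-KO libraries 1 to 3, against 0.62, 0.56 and 0.66 in Cdyl-Het libraries 1 to 3. As linear ratios these averaged 2.23 in Cdyl-KO and 1.53 in Cdyl-Het, with no overlap (difference 0.54 on the log2 scale, two-sided exact permutation p = 0.1, adjusted 0.15).

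The Peg10 and Asb4 genes lie in the same region of chromosome 6. Peg10, a paternally expressed gene derived from a retrotransposon and known for its role in the placenta, lies at chr6:4747306-4760517 (plus strand). It had 101.01, 103.37 and 105.85 scaled RPKM in Cdyl-KO libraries 1 to 3, against 82.2, 75.4 and 60.7 scaled RPKM in Cdyl-Het libraries 1 to 3. The 3 Cdyl-KO libraries lay close together and the Cdyl-Het libraries were spread out below them. The means were 103.41 ± 2.42 in Cdyl-KO and 72.8 ± 11.0 in Cdyl-Het (SD, n = 3 each), a log2 change of 0.51 (SE 0.11, limma adjusted p = 0.0343; 0.0260 to 0.0931 with 1 library left out). Sgce, which encodes a sarcoglycan and starts 98 bases away on the other strand, is also paternally expressed and averaged 1.85 scaled RPKM in Cdyl-KO and 1.80 in Cdyl-Het (log2 change 0.02, limma adjusted p = 0.922).

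Asb4, a maternally expressed ankyrin repeat and SOCS box protein at chr6:5383386-5433022 (plus strand), had 19.68, 20.25 and 16.27 scaled RPKM in Cdyl-KO libraries 1 to 3. In Cdyl-Het libraries 1 to 3 it had 15.07, 12.20 and 11.51 scaled RPKM. The groups did not overlap, and Asb4 rose by a log2 change of 0.51 (SE 0.12, limma adjusted p = 0.0457; 0.0276 to 0.140 with 1 library left out). Ppp1r9a, which encodes the actin-binding protein neurabin and lies between Peg10 and Asb4, had a log2 change of 0.07 and did not pass. Under cyclic loess neither raised gene of the region passed, with log2 changes of 0.39 for Peg10 (limma adjusted p = 0.0580, within 0.0247 to 0.0931 over all alternatives) and 0.46 for Asb4 (limma adjusted p = 0.0640, within 0.0276 to 0.140).

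Zim1, a maternally expressed zinc finger gene at chr7:6671269-6696450 (minus strand), had 37.8, 33.0 and 36.1 scaled RPKM in Cdyl-KO libraries 1 to 3. In Cdyl-Het libraries 1 to 3 it had 29.3, 26.4 and 23.6 scaled RPKM. All Cdyl-KO libraries were above all Cdyl-Het libraries, and Zim1 rose by a log2 change of 0.42 (SE 0.09, limma adjusted p = 0.0347; 0.0295 to 0.105 with 1 library left out). Its neighbour Peg3, a paternally expressed zinc finger gene at chr7:6703892-6730431 (minus strand), had 318.34, 304.66 and 329.24 scaled RPKM in Cdyl-KO libraries 1 to 3, against 274.69, 262.18 and 224.81 scaled RPKM in Cdyl-Het libraries 1 to 3. The groups did not overlap, and the log2 change of 0.33 (SE 0.09) did not pass (limma adjusted p = 0.0660). Usp29, a paternally expressed gene of the ubiquitin protease family, averaged 3.59 scaled RPKM in Cdyl-KO and 3.28 in Cdyl-Het (log2 change 0.10, limma adjusted p = 0.376).

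The Gnas region gave the lowest change of the 37 genes. Nespas, a paternally expressed noncoding RNA that runs antisense through the region (chr2:174281237-174295436, minus strand), had 3.71, 4.24 and 3.20 scaled RPKM in Cdyl-KO libraries 1 to 3, against 5.28, 4.67 and 4.90 scaled RPKM in Cdyl-Het libraries 1 to 3. All Cdyl-KO libraries were below all Cdyl-Het libraries, and the log2 change of -0.34 (SE 0.09) did not pass (limma adjusted p = 0.0698). Gnas, which encodes the stimulatory G protein alpha subunit and is imprinted in some tissues, averaged 55.0 scaled RPKM in Cdyl-KO and 51.5 in Cdyl-Het (log2 change 0.09, limma adjusted p = 0.269). The exons of Nespas and Gnas share 988 bases on opposite strands, and how strand was used in the counting is not stated, so reads in that stretch cannot be told apart.

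In the Igf2r region no gene passed. Igf2r, the maternally expressed receptor that takes up IGF2 for breakdown, averaged 34.9 ± 1.11 scaled RPKM in Cdyl-KO and 32.1 ± 1.34 in Cdyl-Het (SD, n = 3 each), with no overlap (log2 change 0.12, limma adjusted p = 0.226). Airn, the paternally expressed noncoding RNA that silences it in cis, averaged 3.95 ± 0.548 scaled RPKM in Cdyl-KO and 4.96 ± 0.319 in Cdyl-Het (SD, n = 3 each). The groups of Airn did not overlap either, and the log2 change of -0.27 did not pass (limma adjusted p = 0.127). Nespas, Airn and Meg3 were the 3 of 37 imprinted genes lower in every Cdyl-KO library, beside 14.5% of all genes. On the deposited values without scaling they passed as lower, with log2 changes of -0.46, -0.39 and -0.33 (limma adjusted p = 0.0286, 0.0376 and 0.0225), as did Mest. There, 13.3% of all genes were called lower, so 4 of 37 is not above the background. Of the other noncoding RNAs, H19 rose. Rian, Mirg and Kcnq1ot1 overlapped between groups, with log2 changes of -0.06, 0.01 and -0.05.

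Cdkn1c, the maternally expressed cyclin-dependent kinase inhibitor p57 at chr7:143458339-143461050 (minus strand), had 258.28, 235.34 and 272.67 scaled RPKM in Cdyl-KO libraries 1 to 3. In Cdyl-Het libraries 1 to 3 it had 233.78, 220.58 and 202.16 scaled RPKM. The lowest Cdyl-KO library was just above the highest Cdyl-Het library, and the log2 change of 0.22 (SE 0.08) did not pass (limma adjusted p = 0.145). Mest, a paternally expressed gene of the hydrolase family at chr6:30723547-30748465 (plus strand), had 152.06, 146.1 and 160.38 scaled RPKM in Cdyl-KO libraries 1 to 3, against 158.75, 165.5 and 157.75 scaled RPKM in Cdyl-Het libraries 1 to 3. The groups overlapped, and the log2 change of -0.07 did not pass (limma adjusted p = 0.482). Mest did pass as lower on the deposited values (log2 change -0.22, limma adjusted p = 0.0332) and under cyclic loess (log2 change -0.23, limma adjusted p = 0.0474). Copg2, a coatomer subunit gene whose exons share 912 bases with Mest on the other strand, had a log2 change of 0.22 with no overlap and did not pass (limma adjusted p = 0.114).

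The 7 genes that rose held 4 of the 19 listed genes of the paternal copy (Nnat, Dlk1, Igf2 and Peg10) and 3 of the 9 of the maternal copy (H19, Zim1 and Asb4). These were 21.1% and 33.3%, beside 4.67% called higher over all genes. Of the 9 genes whose imprinting is limited to some tissues, 0 passed in limma, and 1 (Copg2) was higher at an unadjusted p of 0.05. The median log2 change was 0.08 for the paternal copy, 0.15 for the maternal copy and 0.06 for the tissue-limited genes. Median levels differed as well, at 10.5, 31 and 7.21 scaled RPKM in that order. The part of level in the differences between these classes was not tested. In the Snrpn-Ube3a region none of the 4 listed genes passed. Its member Ndn, a growth-suppressing MAGE family gene, averaged 17.7 ± 1.22 scaled RPKM in Cdyl-KO and 15.0 ± 0.816 in Cdyl-Het (SD, n = 3 each), with no overlap (log2 change 0.23, limma adjusted p = 0.0908). Magel2, Snrpn and the ubiquitin ligase gene Ube3a overlapped between groups, with log2 changes of 0.06, 0.08 and 0.07. Slc38a4, a paternally expressed amino acid transporter, and Grb10, a maternally expressed adaptor that restrains growth, did not overlap, with log2 changes of 0.20 (limma adjusted p = 0.108) and 0.15 (limma adjusted p = 0.202). Zdbf2, Impact, Plagl1, Cd81, Tssc4, Commd1, Zrsr1 and Trappc9 overlapped between groups, with log2 changes of -0.07 to 0.16.

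Ratios of neighbouring imprinted genes do not depend on the scaling between libraries. Of 16 pairs chosen, 15 could be computed, and in 10 the 3 Cdyl-KO ratios did not overlap the 3 Cdyl-Het ratios. Over 10833 pairs of listed genes adjacent on a chromosome, 32.8% did not overlap. Some of the 15 pairs share a gene (Meg3 or Peg3), so they are not separate. Several set a low gene against a high one, such as Sgce (mean 1.82 scaled RPKM) and Peg10 (88.1). Over all genes the median log2 change was -0.09 in the lowest quartile by level and 0.07 in the highest. The part of that shift in these ratios was not tested. With 3 libraries a group, the two-sided exact permutation test cannot go below 0.1, so no pair could pass, and the smallest adjusted p over the 15 pairs was 0.15. The ratio was lower in every Cdyl-KO library for Nespas to Gnas (difference in log2 ratio -0.52) and Airn to Igf2r (-0.46). Sgce to Peg10 (-0.49) and Blcap to Nnat (-0.43) were also lower in every Cdyl-KO library, as was Usp29 to Peg3 (-0.20). The ratios of Copg2 to Mest (0.33), Mirg to Meg3 (0.23), Rian to Meg3 (0.16) and Zim1 to Peg3 (0.11) were higher in every Cdyl-KO library. Those of Kcnq1ot1 to Cdkn1c (-0.29), Magel2 to Ndn (-0.15), Commd1 to Zrsr1 (-0.08) and Snrpn to Ube3a (0.02) overlapped, as did Igf2 to H19.

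**Figure D4:**
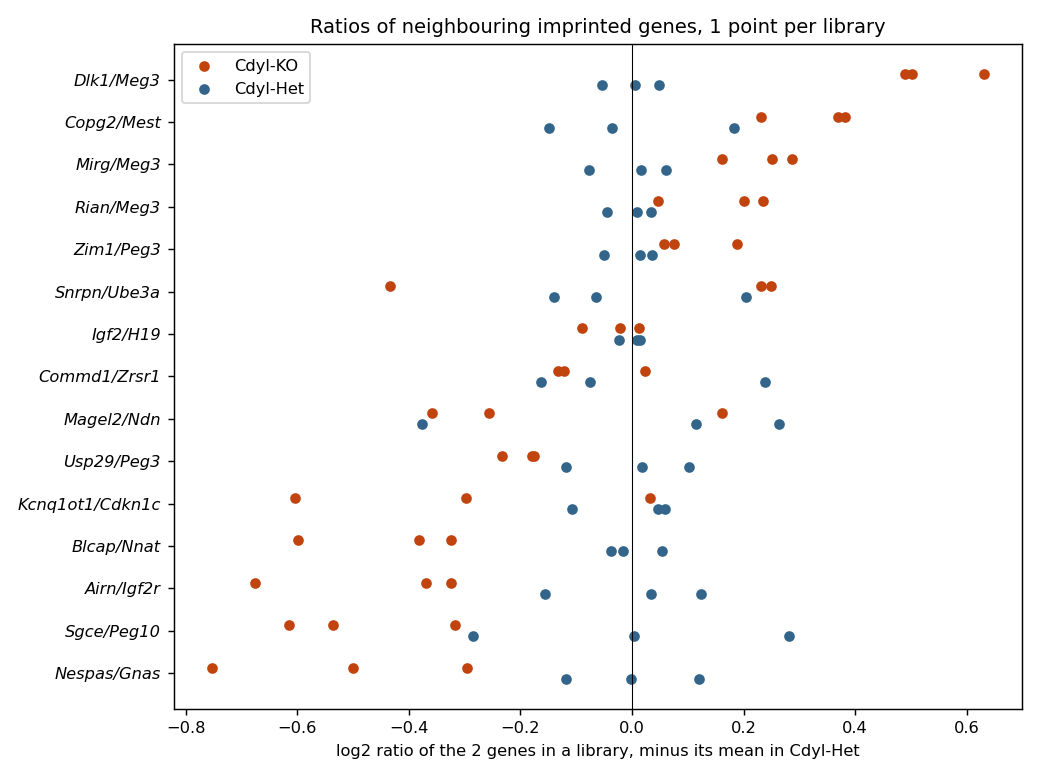
Log2 ratio of the 2 genes of each of 15 neighbouring imprinted pairs in every library, minus the pair's mean in Cdyl-Het, with Cdyl-KO points above Cdyl-Het points in each row. The Cdyl-KO points of Dlk1 to Meg3 lie about 0.54 to the right of Cdyl-Het, and those of Igf2 to H19 lie among them.

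The changes ran with the level of the genes. Imprinted genes were high in these cells, with a median of 10.5 scaled RPKM beside 5.98 over all genes, and 17 of the 37 were in the highest quartile of all genes by level, where means were at least 12.15 scaled RPKM. All 7 calls were among these 17 (41.2%), beside 9.07% called higher among all 2934 genes of that quartile. The median log2 change of the 17 was 0.23, and that of all genes of the quartile was 0.07. The quartile is not matched to the 17 by level, as their median level was 35.5 scaled RPKM beside 21.4 for all its genes. With all genes in 20 bins of level, the median log2 change was 0.03 in bin 16, the lowest of this quartile, and 0.13 in bin 20. In the 3 lower quartiles the imprinted genes numbered 4, 8 and 8 from the lowest up, with medians of 0.01, 0.01 and 0.05, beside -0.09, -0.03 and 0.02 for all genes. Over all genes, change thus moved with level too, and the part of this shift in the imprinted changes was not tested beyond the cyclic loess fit, in which 3 of the 7 (Nnat, Dlk1 and Zim1) passed as higher.

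**Figure D5:**
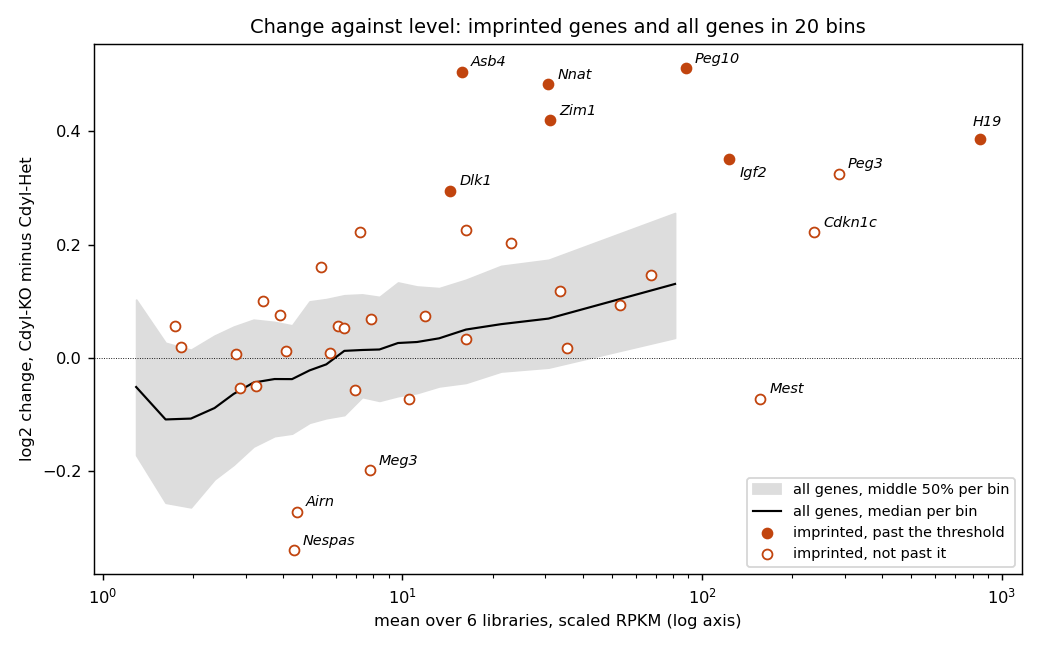
Log2 change (Cdyl-KO minus Cdyl-Het) against mean level in scaled RPKM (log axis) for the 37 imprinted genes, with the median and the middle 50% of all genes in 20 bins of level as a line and a band. Filled points passed the threshold. Asb4, Nnat, Zim1 and Dlk1 lie above the band. Peg10, Igf2 and H19 lie to the right of the last bin's median level (81.3 scaled RPKM, median log2 change 0.13), where the band ends.

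Genes around the raised imprinted genes were looked at after the values had been seen. The nearest listed genes outside the imprinted lists, up to 2 on each side of each of the 7, came to 20 genes, up to 2195.5 kb away. They included Igf2os, which shares 98 exon bases with Igf2 on the opposite strand. Of the 20, 1 rose (beside 4.67% of all genes), 0 fell (beside 2.83%) and 19 did not pass, with a median log2 change of 0.01. The 1 was Vstm2l, which lies 352.1 kb from Nnat and averaged 8.70 ± 0.733 scaled RPKM in Cdyl-KO and 1.33 ± 0.328 in Cdyl-Het (SD, n = 3 each; log2 change 2.07, limma adjusted p = 0.000347). The genes that lie between it and Nnat and nearest on the other side, Ctnnbl1 and Src, had log2 changes of 0.26 and -0.13 and did not pass (limma adjusted p = 0.0648 and 0.406).

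A list of 64 further imprinted genes had 24 listed members, of which 0 rose and 2 fell in limma, beside 4.67% and 2.83% of all genes. At an unadjusted p of 0.05 in limma, 4 were higher and 3 lower, beside 14.2% and 11.2% of all genes. The median log2 change of the 24 was -0.03. With only genes of a mean of at least 5, 2 of them passed as higher, Smoc1 (log2 change 0.34, limma adjusted p = 0.0388, against 0.0505 over all genes) and Peg13 (0.28, limma adjusted p = 0.0444, against 0.0579 over all genes), and 1, Jade1, as lower. Under cyclic loess Smoc1 also passed as higher (log2 change 0.27, limma adjusted p = 0.0459). Gatm, the enzyme of the first step of creatine synthesis, which is imprinted in placenta, had 1.65, 1.13 and 1.88 scaled RPKM in Cdyl-KO libraries 1 to 3, against 3.15, 4.75 and 4.22 scaled RPKM in Cdyl-Het libraries 1 to 3. All Cdyl-KO libraries were below all Cdyl-Het libraries, and Gatm fell by 0.98 on the log2 scale (SE 0.16, limma adjusted p = 0.0155; 0.0718 at most with 1 library left out, and over 0.05 without Cdyl-Het replicate 2 or 3). Jade1, a PHD finger protein of histone acetyltransferase complexes, averaged 6.50 ± 0.572 scaled RPKM in Cdyl-KO and 8.27 ± 0.365 in Cdyl-Het (SD, n = 3 each). Jade1 fell by 0.31 on the log2 scale (SE 0.07, limma adjusted p = 0.0457), a call that ended whichever library was left out (0.0582 to 0.125).

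Genes that set or keep imprints were taken as a further list. Of 38 such regulators, 35 were listed, with a median log2 change of 0.01. In limma 1 rose (2.86%) and 0 fell, beside 4.67% and 2.83% of all genes. At an unadjusted p of 0.05 in limma, 1 was higher and 2 were lower, beside 14.2% and 11.2% of all genes. Ehmt2, the H3K9 methyltransferase G9a, averaged 30.3 ± 0.650 scaled RPKM in Cdyl-KO and 25.1 ± 1.16 in Cdyl-Het (SD, n = 3 each), a log2 change of 0.26 (SE 0.05, limma adjusted p = 0.0322), which did not pass with any library left out (0.0658 to 0.103). Dnmt1 averaged 33.6 scaled RPKM in Cdyl-KO and 35.9 in Cdyl-Het (log2 change -0.09), and its partner Uhrf1 32.0 in Cdyl-KO and 35.7 in Cdyl-Het (-0.15). Zfp57 averaged 15.3 scaled RPKM in Cdyl-KO and 17.2 in Cdyl-Het (-0.16), Trim28 106.63 in Cdyl-KO and 99.9 in Cdyl-Het (0.09) and Setdb1 14.1 in Cdyl-KO and 14.2 in Cdyl-Het (-0.01). Ctcf, the insulator protein of the H19-Igf2 control region, averaged 23.1 scaled RPKM in Cdyl-KO and 22.5 in Cdyl-Het (0.04). These 6 did not pass, with limma adjusted p of 0.221 to 0.966.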

How the data were processed

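In the deposited tables, 1 for each library, 11736 gene symbols each have a value, taken here as RPKM from the numbers themselves (not whole, summing to 191953 to 209917 per library). The authors named mm10, STAR and featureCounts 1.6.4 (Subread) in the submitters' processing notes. The annotation, strand setting and RPKM step were not given in the sources used here. Per the labels' protocols, libraries were made with a stranded SMARTer Pico kit for total RNA.

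Values were divided by a factor per library (trimmed mean of log ratios, 30% of ratios and 5% of levels trimmed at each end, against Cdyl-Het replicate 1) and are called scaled RPKM. Limma 3.58.1 in R 4.3.3 fitted log2(scaled RPKM + 1) with group as the only term and trend on level, two-sided, over all genes. Adjusted p-values are Benjamini-Hochberg, threshold 0.05. The pseudocount of 1 understates changes of low genes. A count test had been planned in case the values were counts. Depth was implied from steps between low values: 87.4% to 89.9% came out whole (tolerance 0.02, under 60 reads). Reads may have been counted by pairs, so fragments may be fewer, and such depths cover counting error only. Positions are from GENCODE M21 (GRCm38, which is mm10), which matched 98.3% of symbols. The procedure was tested on simulated data drawn with independent noise and no shift with level, unlike the values here. Values in every library are given for imprinted members past the threshold, for members without overlap changed by at least 0.3 on the log2 scale, and for the 6 highest members. Further imprinted genes and regulators past the threshold are named. Meg3, Mir483, Smoc1 and Peg13 were added to those named after their values were seen. The members and lists were chosen with earlier results of these data known. Alternatives were other scalings, pseudocounts, a minimum mean of 5, no trend, a replicate block and leaving out each library.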

Additional observations from a re-analysis of the deposited data

How the results depend on the processing

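The 7 raised imprinted genes kept log2 changes above 0 under every alternative run. Their calls numbered 7 with median-of-ratios scaling, a pseudocount of 0.1 or 0.5, or a minimum mean of 5, and 6 without trend. Without scaling, 1 imprinted gene was higher and 4 were lower (Nespas, Airn, Meg3 and Mest). Further imprinted genes with a change numbered 4, all lower, and regulators 5, also all lower, while Ehmt2 did not pass. Of all genes 1863 changed, 305 higher and 1558 lower, against 548 higher and 332 lower after scaling. Under cyclic loess, added after seeing the data, 4 imprinted genes changed, 3 higher (Nnat, Dlk1 and Zim1) and 1 lower (Mest). With a minimum mean of 5, 202 of all genes were lower. The cause of these differences was not tested.

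With 1 library left out, fewer samples entered the fit, and 0 to 6 imprinted genes changed, 0 to 6 of them higher and 0 lower, with 0 to 1 further imprinted genes and 0 regulators. Of all genes, 253 to 647 changed, 197 to 387 higher and 56 to 260 lower.

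Replicate numbers in the labels run from 1 to 3 in both groups. Deviations of same-numbered libraries from their group means correlated at -0.052, -0.27 and -0.053, and none of the 3 Cdyl-KO libraries correlated best with the Cdyl-Het library of its own number, so the numbers were not taken as pairs. With the replicate block, 2 imprinted genes were higher (Nnat and Asb4), 0 further imprinted genes and 0 regulators changed, and 337 of all genes changed, 209 higher and 128 lower.

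Depth limits the low genes most: Magel2 had 206 to 450 implied reads in a library.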
